A study of Mus musculus with 12 samples.

Results

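The snoRNA host non-coding genes described here are 10 genes, Gas5, Snhg1, Snhg3, Snhg5, Snhg6, Snhg8, Snhg12, Snhg15, Snhg17 and Snhg20, of 55401 gene identifiers counted in each library. They were chosen by name as spliced host transcripts known to be sensitive to RNA decay, and their symbols were matched to Ensembl identifiers through GENCODE M21 (GRCm38). All 10 carry that annotation's tag for hosts of non-coding RNA, and all 10 passed the filter on low counts. RNA was measured by stranded total RNA sequencing, after ribosomal RNA depletion, in Neuro-2a, a line of mouse neuroblastoma cells. Each of 3 groups held 4 libraries, labelled biological replicates 1 to 4. Every well received 1 µg of a GFP plasmid and 3 µg of plasmids encoding artificial miR30-type microRNAs driven by the CAG promoter. The miScramble group received 1 scramble plasmid, the miRbmx group 3 pooled plasmids that target Rbmx, and the miRbmxl1 group 2 pooled plasmids that target Rbmxl1. Cells positive for GFP were isolated by flow cytometry after 48 hours. One cell line was used, and a pool does not tell its plasmids apart. The labels do not say what a replicate number shares across groups, so p-values measure the spread between these samples. With bulk RNA, fewer cells of a kind and less RNA per cell cannot be told apart.

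A snoRNA host gene carries small nucleolar RNAs in its introns. Splicing releases them, and they then guide ribose methylation (box C/D snoRNAs) or pseudouridylation (box H/ACA snoRNAs) of ribosomal and other RNAs. The spliced host RNA that is left has only short reading frames. Several hosts, Gas5 among them, are known to be translated on these frames and destroyed by nonsense-mediated decay, so their level depends on transcription, splicing and decay together. Many host genes start transcription at a terminal oligopyrimidine tract, as ribosomal protein genes do. Rbmx encodes a nuclear RNA-binding protein that acts in splicing, and Rbmxl1 is a retrocopy of it.

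Sequences around the transcription start are shown first because the members went in different directions between sets of replicates. RefSeq (GRCm38.p6) has promoter records for 9 of the 10 members, 11 records in all, and none for Snhg6. Each window below covers 40 bases before the start and 20 bases from it, on the strand of the gene. Capitals mark the letters TATA, extended where they overlap, between positions -40 and -20 from the start (the same on both strands). Capitals also mark a run of C followed by at least 4 pyrimidines on the gene's strand, with its first base within 5 bases of the start.
Gas5 record 1, chr1:161034561-161034620, plus strand: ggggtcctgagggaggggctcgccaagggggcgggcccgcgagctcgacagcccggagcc
Gas5 record 2, chr1:161035126-161035185, plus strand: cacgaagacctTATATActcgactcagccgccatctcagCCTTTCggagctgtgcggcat
Snhg1, chr19:8723447-8723506, plus strand: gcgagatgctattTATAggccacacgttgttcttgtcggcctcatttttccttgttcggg
Snhg5, chr9:88522878-88522937, minus strand: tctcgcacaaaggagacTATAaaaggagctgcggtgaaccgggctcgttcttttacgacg
Snhg8, chr3:123508317-123508376, minus strand: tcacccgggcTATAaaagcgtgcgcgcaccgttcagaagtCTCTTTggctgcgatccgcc
Snhg12, chr4:132308638-132308697, plus strand: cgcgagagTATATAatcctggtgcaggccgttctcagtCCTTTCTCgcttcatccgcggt
Snhg3, chr4:132353667-132353726, minus strand: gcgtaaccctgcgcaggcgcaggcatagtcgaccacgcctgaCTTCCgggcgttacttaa
Snhg15, chr11:6528741-6528800, minus strand: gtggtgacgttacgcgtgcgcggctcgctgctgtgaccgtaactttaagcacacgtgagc
Snhg17 record 1, chr2:158361503-158361562, minus strand: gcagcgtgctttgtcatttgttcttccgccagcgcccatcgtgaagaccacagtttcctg
Snhg20, chr11:117076743-117076802, plus strand: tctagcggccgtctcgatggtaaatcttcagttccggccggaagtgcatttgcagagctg

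TATA stood in this stretch in 5 member genes (Gas5, Snhg1, Snhg5, Snhg8 and Snhg12), against 5.7% of all 32851 RefSeq promoter records. The pyrimidine run was found in 4 member genes (Gas5, Snhg8, Snhg12 and Snhg3), against 18.3% of the records. Both stood in 1 record in 3 genes (Gas5, Snhg8 and Snhg12), against 1.07% of the records. The second Snhg17 record, like the first, had neither. A match describes letters in a window and does not show a used site.

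The snoRNA genes within the hosts decide what can be counted. GENCODE M21 places 34 snoRNA genes, 1 of them a scaRNA (a small RNA of Cajal bodies), within the spans and on the strands of the 10 members. Gas5 holds 10, Snhg1 8, Snhg12 5 and Snhg17 3. Snhg3 and Snhg5 hold 2 each, and Snhg6, Snhg8, Snhg15 and Snhg20 hold 1 each. These are annotated entries: Snord80 in Gas5 and Snora16a in Snhg12 each have more than 1 at nearly the same position, so separate loci are fewer. Of the 34, 31 lie wholly inside an exon of some annotated host transcript (retained-intron transcripts included), and not 1 read was counted for any of these in any library. The other 3 are in Snhg3 (Snora73b and Snora73a) and Snhg6 (Snord87), and each had reads in every library. Snora73b and Snord87 lie in an intron of every host transcript, and Snora73a lies partly in a host exon. Over all genes, 762 lie wholly within exons of other genes on their own strand, and 1 of these (0.131%) had a read. Of 436 genes wholly within exons on the opposite strand only, 57.3% had reads. The deposited counts therefore kept the strands apart and gave no count to all but 1 of the genes nested on the same strand. Whether reads over nested snoRNA genes were counted for the host or for no gene was not tested. These bases make up from 0% (Snhg6) to 20.95% (Snhg1) of a host's exons.

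The sequences of the counted snoRNAs, with Snord47 of Gas5 as an uncounted one, are given from the GENCODE M21 transcripts. Snora73b and Snora73a are printed with the bases that differ between them in capitals. Snord87 and Snord47 are printed with the C box (TGATGA) and the D box (CTGA) in capitals, which define box C/D snoRNAs.
Snora73b, chr4:132352322-132352526, minus strand: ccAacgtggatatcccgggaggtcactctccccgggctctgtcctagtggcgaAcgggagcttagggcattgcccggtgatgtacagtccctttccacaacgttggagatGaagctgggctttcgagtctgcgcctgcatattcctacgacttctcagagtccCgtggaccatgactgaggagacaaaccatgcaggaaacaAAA
Snora73a, chr4:132352775-132352979, minus strand: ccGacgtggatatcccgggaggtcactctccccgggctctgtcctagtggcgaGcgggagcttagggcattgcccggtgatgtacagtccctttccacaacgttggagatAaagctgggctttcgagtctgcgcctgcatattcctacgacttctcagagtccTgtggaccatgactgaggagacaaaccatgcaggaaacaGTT
Snord87, chr1:9942463-9942549, minus strand: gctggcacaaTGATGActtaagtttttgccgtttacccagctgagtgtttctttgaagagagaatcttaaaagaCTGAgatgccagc
Snord47, chr1:161038082-161038158, plus strand: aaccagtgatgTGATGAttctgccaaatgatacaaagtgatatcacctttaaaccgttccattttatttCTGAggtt

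Snora73b and Snora73a, box H/ACA RNAs that act in ribosomal RNA processing, are identical at 198 of 205 bases (96.6%), with a longest identical run of 56 bases. How many of their reads aligned to both was not tested, so their counts are uncertain.

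Libraries held from 43.1 to 52.2 M reads in genes. Levels are CPM, counts scaled to a fixed total, on TMM-scaled library sizes, which correct for a shift in composition. Changes are log2 fold changes ± SE from edgeR's quasi-likelihood model over 17569 genes with the replicate number as a block, and calls need a p under 0.05 after Benjamini-Hochberg adjustment over all genes. The targeted genes were low in the labelled groups. Rbmx ranged from 57.6 to 73.3 CPM in miScramble and from 22.2 to 32.6 CPM in miRbmx. Rbmxl1 ranged from 31.3 to 36.7 CPM in miScramble and from 12.3 to 16.7 CPM in miRbmxl1. Rbmx was higher in miRbmxl1, at 81.9 to 90.0 CPM (0.36 ± 0.07, adjusted p = 0.0165; 0.444 without the block), so the miRbmxl1 libraries differ from miScramble in both genes. All 12 neuroblastoma markers were above 1 CPM in every library, while 5 of 6 fibroblast markers and 3 of 4 blood markers were below 1 CPM in all 12, with Col3a1, Hbb-bs and Hba-a1 at 0. Replicates 1 and 2 of every group stood apart from replicates 3 and 4 on the first principal component (37.9% of the variance). On the second, miRbmxl1 replicate 2 lay with miScramble.

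Per kb of exon, the 10 hosts covered a range of about one order of magnitude in miScramble, here as mean ± SD over 4 libraries. Snhg1, the host of Snord22 and 7 further box C/D genes, was highest, at 49.8 ± 4.74 CPM per kb. Snhg5, host of Snord50a and Snord50b, followed at 47.3 ± 1.64 CPM per kb, which lies within that spread. Snhg12 and Snhg15 were alike, at 38.5 ± 10.1 CPM per kb each, and Gas5 stood at 33.98 ± 2.69 CPM per kb. These last 3 did not differ beyond their spread. Snhg6 came next at 25.4 ± 4.07 CPM per kb. A lower set followed, with Snhg3 at 10.4 ± 1.86, Snhg17 at 10.2 ± 2.35 and Snhg20 at 6.63 ± 2.18 CPM per kb. Snhg8, host of Snora24, was lowest, at 4.78 ± 0.447 CPM per kb, and overlapped Snhg20 in its range. The union of annotated exons covers the whole span of Snhg1, Snhg12 and Snhg8, but 986 of 5673 bases of Snhg3. Levels per kb are therefore not strictly comparable between genes. With the longest annotated transcript as length, the order differed: Snhg15 was highest at 77.5, and Snhg1 stood at 54.2 CPM per kb. Without length correction, CPM means over all 12 libraries placed Snhg1 (142 CPM) and Gas5 (120 CPM) highest.

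**Figure D1:**
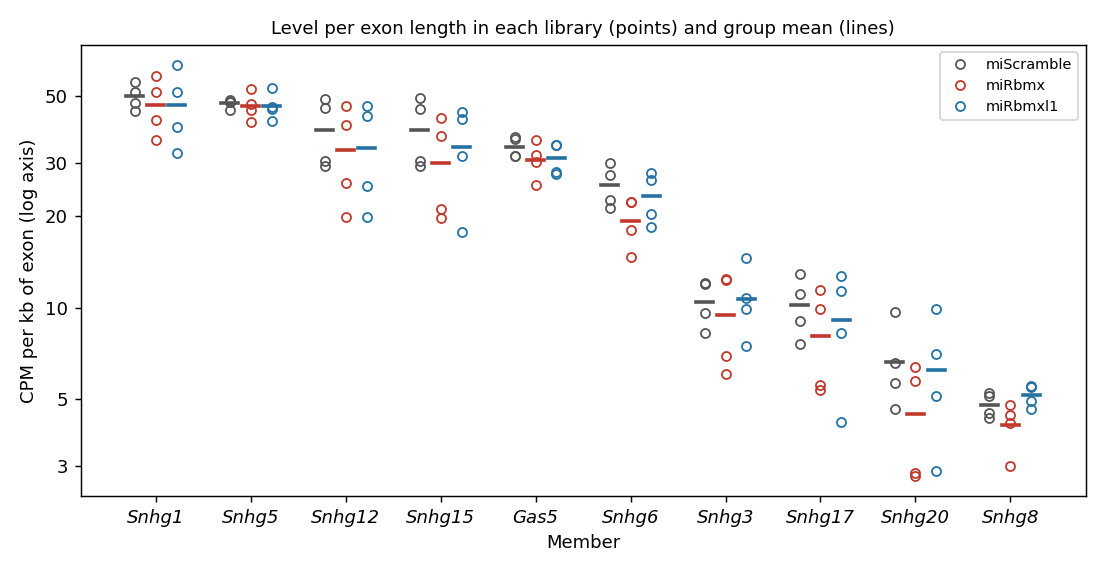
Level of each host transcript in CPM per kb of exon (log axis), by gene from the highest to the lowest in miScramble; open circles are libraries, coloured by group, and lines are group means of 4 libraries. The miScramble means go from 49.8 (Snhg1) to 4.78 (Snhg8), and the libraries of the 3 groups overlap in every gene.

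The comparison of miRbmx with miScramble asks whether host transcripts changed when Rbmx was reduced. The fitted change was negative for all 10 members, with a median of -0.25 against 0.00 over all genes tested. Of the 10, 3 were called lower (Snhg6, Snhg12 and Snhg15) and none higher. Over all 17569 genes, 8.35% were called, 4.19% as lower and 4.16% as higher. Without the replicate block no member was called (edgeR; 1 of 10 at an unadjusted p under 0.05, as were 1919 of 17569 genes), and 1 gene of all (0.00569%) was called. The groups overlapped in every member, where 3.85% of all genes were lower and 4.22% higher in miRbmx with no overlap. The 3 calls therefore depend on the replicate block. The block removes differences between replicate numbers, and with them the separation between sets of replicates. A block for the sets alone was not fitted. Whether the calls need pairing by number within a set was therefore not tested.

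Snhg6, host of the box C/D RNA Snord87, had 31.4, 34.5, 24.4 and 26.0 CPM in miScramble replicates 1 to 4. In miRbmx it had 25.6, 25.6, 16.8 and 20.6 CPM. Each miRbmx library was below the scramble library of its number, and below both scramble libraries of its replicate set, although the groups as a whole overlapped. The change was -0.40 ± 0.07 (adjusted p = 0.00821), lower in 4 of 4 pairs, where 16.8% of all genes were lower in all 4. Without the block the value was -0.39 ± 0.17 (adjusted p = 0.426). Snhg6 stayed called when any 1 of the 12 libraries was left out, with an adjusted p of at most 0.0420, but not without replicate 3 of every group (-0.35, adjusted p = 0.0563). Snhg6 shares 127 bases of exon with Mcmdc2 on the opposite strand, which had at most 0.0438 CPM in any library.

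Snhg15, host of the box H/ACA RNA Snora9, had 41.3, 39.9, 66.6 and 61.4 CPM in miScramble. In miRbmx it had 26.9, 28.7, 50.2 and 57.4 CPM. Every miRbmx library was lower than its scramble counterpart, most in replicate 1 and least in replicate 4, and the groups overlapped. The change was -0.40 ± 0.11 (adjusted p = 0.0365) with the block and -0.36 ± 0.30 (adjusted p = 0.721) without it. Of the 12 fits that left out 1 library, 6 called Snhg15.

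Snhg12 is host of 4 annotated box H/ACA entries, Snora16a having more than 1 of them, and of the box C/D gene Snord99. Snhg12 had 116.9, 109.7, 70.4 and 73.2 CPM in miScramble. In miRbmx it had 111.5, 96.0, 47.9 and 61.7 CPM. Replicates 1 and 2 were high and replicates 3 and 4 low in both groups, and the distance to scramble was widest in replicate 3. The change was -0.27 ± 0.07 (adjusted p = 0.0373), again lower in 4 of 4 pairs, and -0.22 ± 0.30 (adjusted p = 0.850) without the block. Of the 12 fits that left out 1 library, 5 called Snhg12, and without miScramble replicate 3 its change was -0.17 ± 0.06 (adjusted p = 0.170). Over single libraries left out, the number of members called ranged from 1 (without miScramble 3, miRbmx 1, miRbmx 2, miRbmx 3 or miRbmxl1 4) to 5 (without miRbmxl1 1). Over all genes, 281 of 17871 were called without miScramble 3 and 1721 of 17935 without miRbmxl1 1.

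**Figure D2:**
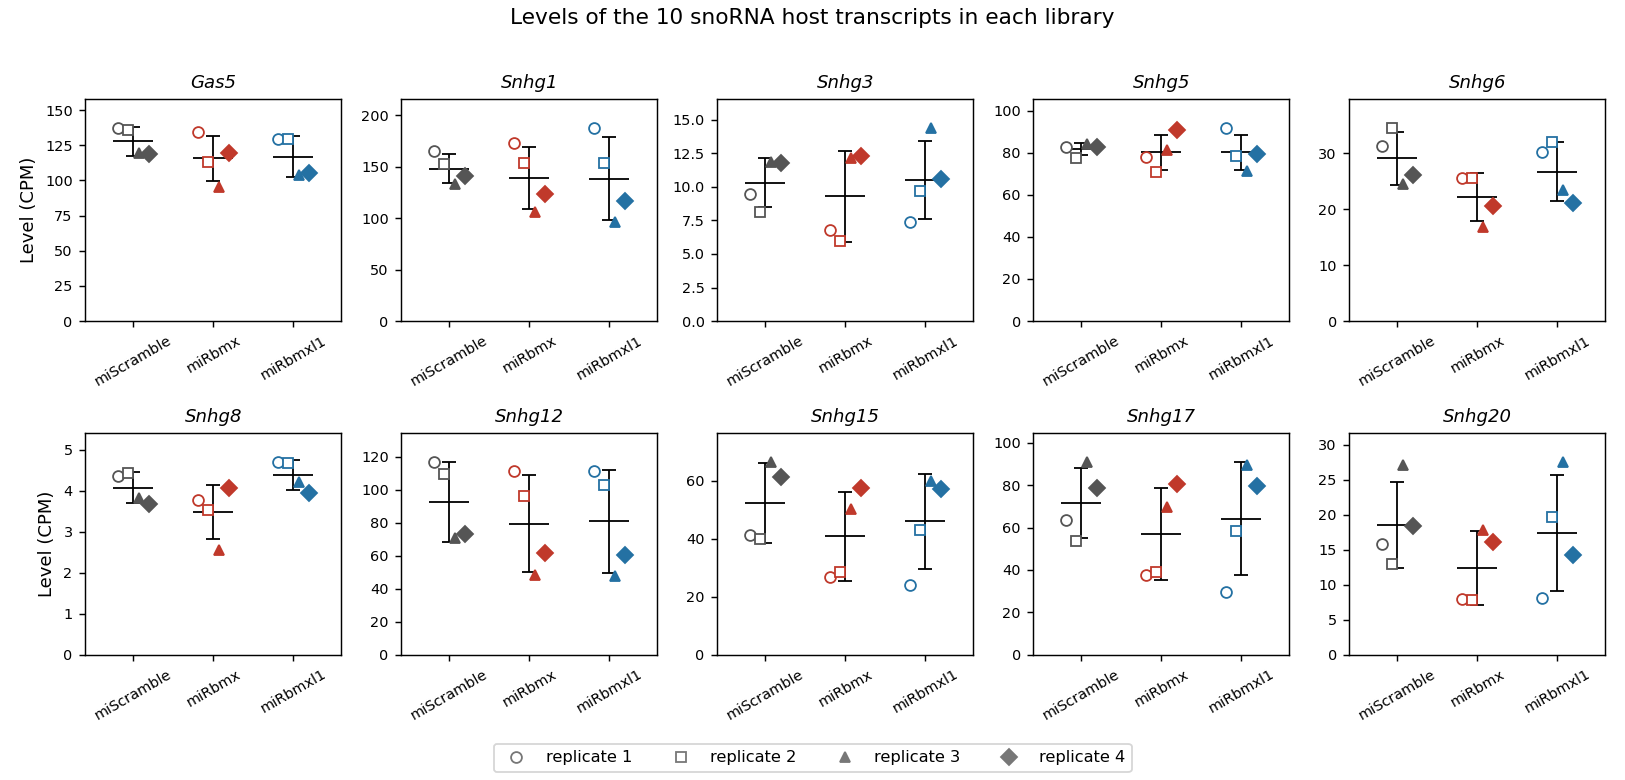
Level of each host transcript in CPM (linear axes from 0) in the 12 libraries; symbols show the replicate number, horizontal lines the group mean and bars the SD over 4 libraries. Snhg6 in miRbmx lies below its same-number scramble library in all 4 cases, and open symbols (replicates 1 and 2) separate from filled ones (replicates 3 and 4) in Snhg12 and Snhg15.

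The remaining hosts did not pass the test in miRbmx. Snhg20, host of a scaRNA gene, had the lowest fold change of all members. It had 15.8, 12.9, 27.1 and 18.3 CPM in miScramble and 7.94, 7.80, 17.9 and 16.1 CPM in miRbmx. Each miRbmx library was below its scramble counterpart, and the change of -0.62 ± 0.19 had an adjusted p of 0.0595. Snhg17, the longest member by exons and host of 3 snoRNA genes, had 63.8, 53.4, 91.2 and 78.5 CPM in miScramble and 37.8, 39.1, 69.9 and 80.6 CPM in miRbmx. It was lower in 3 of 4 pairs, with a change of -0.40 ± 0.15 (adjusted p = 0.105). With no filter on low counts 2085 of 31777 genes were called in miRbmx. Both genes were among the lower ones, which makes 5 members (adjusted p = 7.7e-08 for Snhg20 and 7.9e-06 for Snhg17). Their changes there were much the same, with smaller SEs (-0.61 ± 0.10 for Snhg20 and -0.39 ± 0.07 for Snhg17). DESeq2, with the filter, called neither (adjusted p = 0.126 for Snhg20 and 0.208 for Snhg17). In edgeR with the filter kept, Snhg20 was called in 4 of the 12 fits that left out 1 library (without miScramble 2, miRbmx 4, miRbmxl1 1 or miRbmxl1 2), with adjusted p from 0.0103 to 0.0487. Snhg17 was called in 1, without miRbmxl1 1 (adjusted p = 0.0228). Without miScramble 1 the change of Snhg17 was -0.18 ± 0.12 (adjusted p = 0.454) and that of Snhg20 -0.41 ± 0.18 (adjusted p = 0.229).

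Gas5, named for its rise in growth-arrested cells, had 137.2, 135.8, 119.2 and 118.8 CPM in miScramble. In miRbmx it had 134.6, 113.3, 95.4 and 119.7 CPM. Replicates 2 and 3 were lower than their counterparts, while replicates 1 and 4 were close to them. The change was -0.15 ± 0.07 (adjusted p = 0.172), from -0.21 without miRbmx 4 to -0.094 without miRbmx 2. Snhg1 had 164.9, 152.7, 132.7 and 140.7 CPM in miScramble and 173.0, 153.2, 106.0 and 123.2 CPM in miRbmx. It was lower only in replicates 3 and 4, and its change over all was -0.12 ± 0.08 (adjusted p = 0.393), from -0.20 without miScramble 1 to -0.02 without miScramble 3.

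Snhg5 had the smallest change of the members in miRbmx, from 77.6 to 84.0 CPM in miScramble and from 70.9 to 90.8 CPM in miRbmx (-0.03 ± 0.07, adjusted p = 0.832). Snhg3, host of the Snora73 genes, went from 8.12 to 11.9 CPM in miScramble and from 5.96 to 12.3 CPM in miRbmx (-0.19 ± 0.13, adjusted p = 0.397). Snhg8, with 3.69 to 4.44 CPM in miScramble and 2.55 to 4.08 CPM in miRbmx, gave -0.23 ± 0.15 (adjusted p = 0.344). The groups overlapped in all 3 genes. Leaving out 1 library, Snhg3 ranged from -0.32 (without miRbmx 4) to -0.07 (without miRbmx 2) and Snhg8 from -0.37 (without miRbmx 4) to -0.12 (without miRbmx 3). Snhg3 shares 135 bases of exon with Rcc1 on its own strand, a gene with 99.2 ± 24.1 CPM in miScramble (SD, n = 4) and a change of -0.02 ± 0.05 in miRbmx. It also shares 705 bases with Gm17300 on the other strand, which had at most 0.0875 CPM in any library.

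In miRbmxl1 against miScramble 8 of the 10 fitted changes were negative, with a median of -0.13 over the members against 0.01 over all genes. No member was called (edgeR; 1 of 10 at an unadjusted p under 0.05, as were 3479 of 17569 genes), where 4.46% of all genes were (2.25% higher and 2.2% lower). None was called without the block (0 of 10 at an unadjusted p under 0.05, as were 1487 of 17569 genes), against 0.00569% of all genes. The groups overlapped in every member, where 2.79% of all genes were lower and 2.88% higher with no overlap. DESeq2 called 1 member, Snhg12. The comparison shares its 4 scramble libraries with the one above, so the values of the members in both are not independent. Leaving out miRbmxl1 replicate 2, which lay with miScramble, gave no call either.

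Snhg12 had 111.4, 102.8, 47.7 and 60.6 CPM in miRbmxl1. Each library was below its scramble counterpart, and the distance was again widest in replicate 3. The change was -0.25 ± 0.07 (adjusted p = 0.0674), and DESeq2 gave an adjusted p of 0.0331. Without miScramble 3 the edgeR change was -0.15. Gas5 had 129.7, 129.5, 103.8 and 105.1 CPM in miRbmxl1, below scramble in 4 of 4 pairs, a pattern shown by 12.6% of all genes. Its change was -0.13 ± 0.07 (adjusted p = 0.282). Snhg6 had 30.3, 32.0, 23.4 and 21.2 CPM in miRbmxl1, also below scramble in 4 of 4 pairs, by least in replicate 1 and by most in replicate 4. Its change was -0.13 ± 0.07 (adjusted p = 0.359), and -0.066 without miRbmxl1 4.

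Snhg15, Snhg17 and Snhg20 were split among the miRbmxl1 libraries. Snhg17 had 29.5, 58.3, 89.4 and 79.9 CPM in miRbmxl1, so replicate 1 was far below its scramble counterpart (a log2 difference of -1.11) and the others were close to theirs. Snhg15 had 24.1, 43.1, 59.9 and 57.0 CPM, and Snhg20 had 8.09, 19.7, 27.6 and 14.3 CPM. In both genes replicate 1 was low and replicate 2 was above its scramble counterpart. The changes were -0.22 ± 0.11 for Snhg15, -0.23 ± 0.15 for Snhg17 and -0.13 ± 0.19 for Snhg20 (adjusted p = 0.284, 0.414 and 0.758). Leaving out 1 library, Snhg15 ranged from -0.35 (without miRbmxl1 2) to -0.085 (without miRbmxl1 1), and the changes of Snhg17 and Snhg20 were also nearest or past 0 without miRbmxl1 1.

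Snhg8 was the only member above scramble in 4 of 4 pairs in miRbmxl1, with 4.71, 4.68, 4.21 and 3.95 CPM (0.11 ± 0.14, adjusted p = 0.742), as were 13.4% of all genes. Its change was 0.04 without miRbmxl1 3 and 0.17 without miRbmxl1 4. Snhg1 ranged from 96.1 to 187.3 CPM in miRbmxl1, the widest range of its 3 groups (-0.14 ± 0.08, adjusted p = 0.366), with a change from -0.22 without miScramble 1 to -0.046 without miScramble 3. Snhg5 ranged from 71.5 to 91.7 CPM (-0.03 ± 0.07, adjusted p = 0.867) and Snhg3 from 7.37 to 14.4 CPM (0.02 ± 0.13, adjusted p = 0.968). The groups overlapped in each of these genes.

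The direct comparison of miRbmx with miRbmxl1 called no member (edgeR; 3 of 10 at an unadjusted p under 0.05, as were 1002 of 17569 genes), where 0.0114% of all genes were called with the block and without it, and none of the 10 without it. No member separated the groups, where 0.569% of all genes were higher and 0.552% lower with no overlap. The median change was -0.17 over the members and 0.00 over all genes. Snhg6 was lower in miRbmx in 4 of 4 pairs (-0.27 ± 0.07, unadjusted p = 0.00206, adjusted p = 0.859), and 6.52% of all genes were lower in all 4 pairs. Snhg20 (-0.48 ± 0.19) and Snhg8 (-0.34 ± 0.15) also had an unadjusted p under 0.05, and each was lower in 3 of 4 pairs. Leaving out 1 library, Snhg20 ranged from -0.67 (without miRbmx 4) to -0.19 (without miRbmxl1 2) and Snhg8 from -0.47 (without miRbmx 4) to -0.23 (without miRbmx 3). Gas5, Snhg1, Snhg5 and Snhg12 lay between -0.02 and 0.02. A call of Snhg6 in miRbmx alone is thus not shown to be a difference between the knockdowns.

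**Figure D3:**
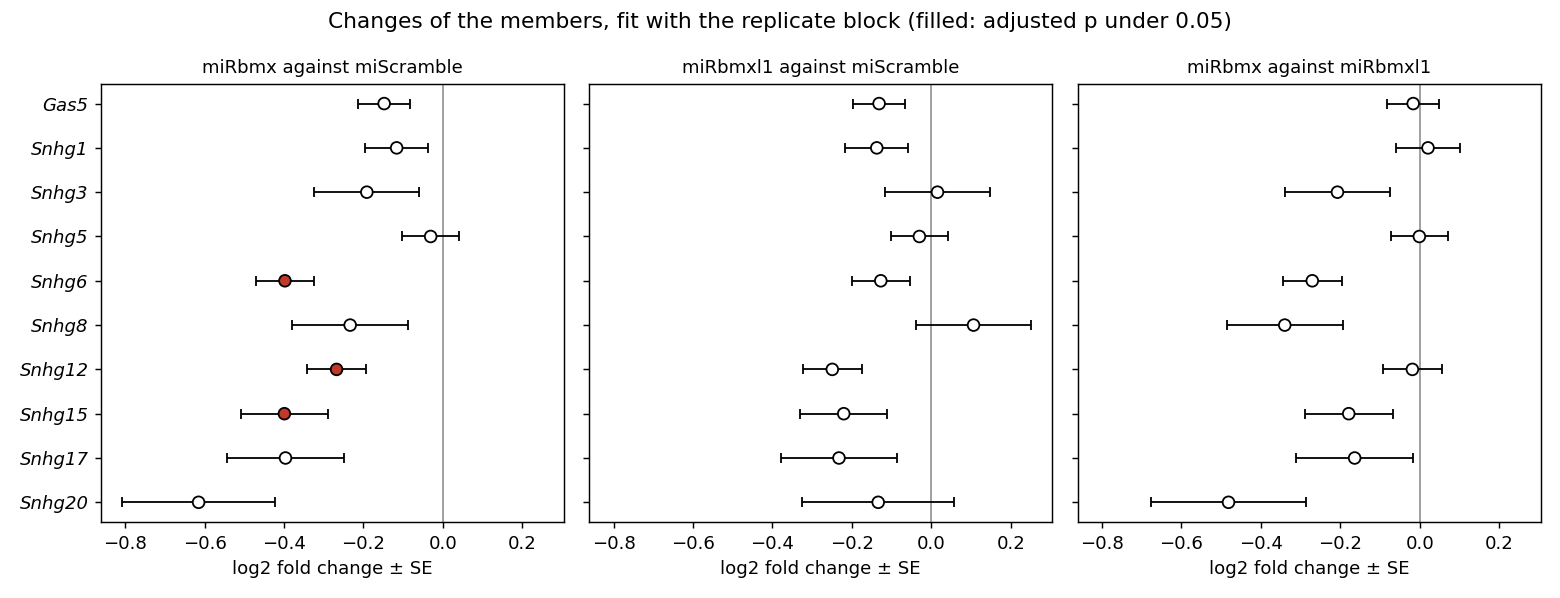
Log2 fold change ± SE of each member from the fit with the replicate block, in 3 panels by comparison; filled points have an adjusted p under 0.05. All 10 points lie below 0 in miRbmx against miScramble, where Snhg6, Snhg12 and Snhg15 are filled, and no point is filled in the other panels.

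The widest differences among the members were between sets of replicates and not between groups. These are described without a test, since the sets were seen in the data. The share of each file's total that fell outside annotated features also separated the sets, at 26.26% to 29.17% in replicates 1 and 2 and 30.84% to 32.15% in replicates 3 and 4. The share counted as ambiguous did so narrowly, at 1.26% to 1.45% in replicates 1 and 2 and 1.2% to 1.25% in replicates 3 and 4. The part of either share in the differences was not tested. Of the members, 3 were higher in replicates 3 and 4 of all groups than in any library of replicates 1 and 2, as were 9.4% of all genes. They were Snhg15 (a mean difference of 0.82 in log2 CPM), Snhg17 (0.84) and Snhg3 (0.64). Rcc1, which shares exon bases with Snhg3, was also higher, at 75.8 to 81.4 CPM in replicates 1 and 2 and 116 to 125 CPM in replicates 3 and 4; its part in the Snhg3 counts was not tested. Snhg20 differed by 0.80 with overlap. In the other direction, 2 members were lower without overlap, as were 10.6% of all genes. These were Snhg12 (-0.86), at 96.0 to 116.9 CPM in replicates 1 and 2 and 47.7 to 73.2 CPM in replicates 3 and 4, and Snhg1 (-0.47). Snhg6 (-0.44), Gas5 (-0.24) and Snhg8 (-0.20) were lower with overlap, and Snhg5 (0.03) hardly differed. The median absolute difference over all genes was 0.24.

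Read against the promoter windows, the 4 genes whose mean was higher in replicates 3 and 4 by 0.64 or more (Snhg3, Snhg15, Snhg17 and Snhg20) had no TATA in the stretch shown. The 5 genes with TATA had differences from -0.86 (Snhg12) to 0.03 (Snhg5). This sets 9 genes side by side and was not tested.

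**Figure D4:**
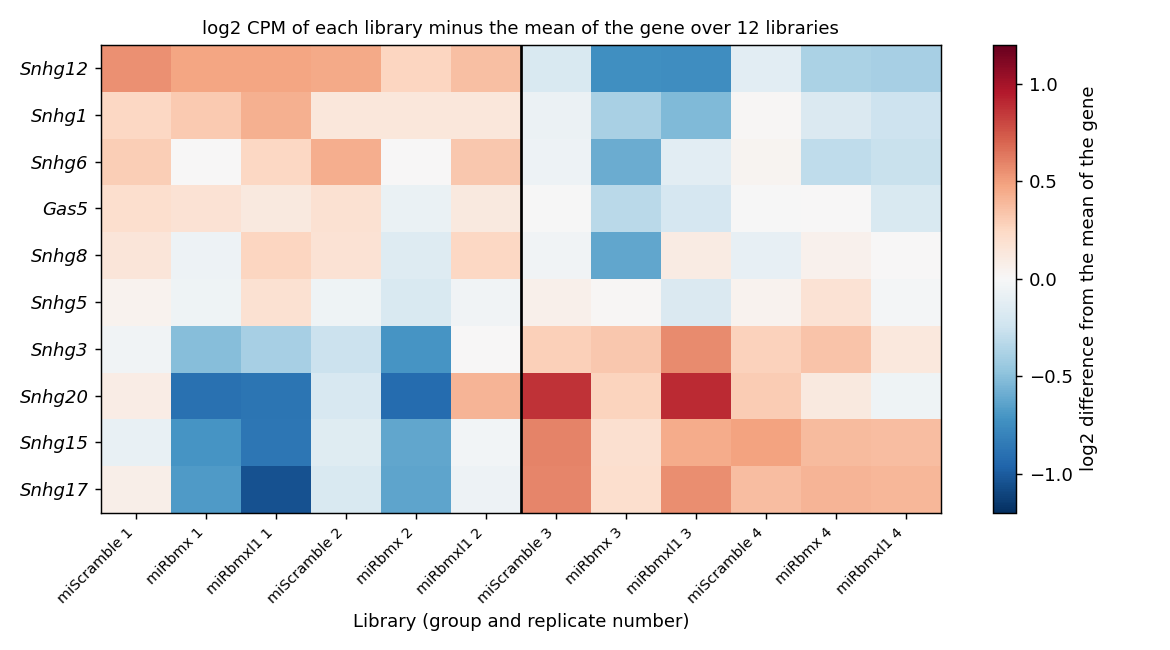
Log2 CPM of each member in each library minus the mean of that gene over 12 libraries (colour scale, red above and blue below the mean); columns are ordered by replicate number with the group named, and a line separates replicates 1 and 2 from 3 and 4. Snhg12 and Snhg1 are above their means on the left and below or at them on the right, and Snhg15 is below its mean in every library on the left and above it in every library on the right.

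The knockdown changes were therefore also given within each set. In replicates 3 and 4 alone, Snhg1 fell in both knockdowns (-0.27 ± 0.07, adjusted p = 0.0176 in miRbmx; -0.38 ± 0.07, adjusted p = 0.00336 in miRbmxl1). In replicates 1 and 2 alone its values were 0.05 ± 0.08 and 0.11 ± 0.08. Snhg12 likewise fell in replicates 3 and 4 in both (-0.41 ± 0.08, adjusted p = 0.00375; -0.43 ± 0.08, adjusted p = 0.00464) and gave -0.12 ± 0.08 and -0.07 ± 0.08 in replicates 1 and 2. Both knockdowns were set against the same scramble libraries. In miRbmx, 10.1% of genes were called within replicates 3 and 4 and 0.023% within replicates 1 and 2. In miRbmxl1 the shares were 5.53% and 0.172%.

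Snhg6 was the member whose miRbmx change was most alike in both sets among the called ones, at -0.35 ± 0.09 in replicates 1 and 2 and -0.44 ± 0.10 in replicates 3 and 4 (adjusted p = 0.136 and 0.0110). Snhg15 gave -0.54 ± 0.18 and -0.26 ± 0.08 (adjusted p = 0.185 and 0.0472). Snhg20 gave -0.87 ± 0.31 and -0.40 ± 0.13, and Snhg17 gave -0.61 ± 0.23 and -0.18 ± 0.09, none of them called. A test of the difference between the sets, in 1 fit with the block and chosen after seeing the data, called 0 of 17569 genes in either comparison. Its smallest p among the members was for Snhg1 in miRbmxl1, with a difference of -0.46 ± 0.11 (unadjusted p = 6.99e-04, adjusted p = 0.261). A difference between the sets in the knockdown change is thus not shown for any member.

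The snoRNAs with counts did not pass the test in either knockdown. Snora73b had 17.8, 24.5, 19.8 and 25.8 CPM in miScramble, 28.8, 25.7, 19.5 and 26.4 CPM in miRbmx, and 24.9, 23.0, 34.4 and 26.4 CPM in miRbmxl1. Its changes were 0.20 ± 0.14 (adjusted p = 0.418) and 0.31 ± 0.14 (adjusted p = 0.231), beside -0.19 ± 0.13 and 0.02 ± 0.13 for its host Snhg3. Snord87 had 1 to 22 reads per library, and its change in miRbmx of 0.20 ± 0.45 (adjusted p = 0.823) stands beside -0.40 ± 0.07 for its host Snhg6. The difference between these 2 changes was not tested. Snora73a had 3 to 25 reads per library.

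Other genes of the same route were described from lists written with earlier results known. Of 11 other non-coding snoRNA hosts, 9 were in the files and 7 were tested. In each knockdown 2 of the 7 were called lower and none higher, beside 4.19% of all genes lower in miRbmx and 2.2% in miRbmxl1. The medians were -0.18 in miRbmx and -0.08 in miRbmxl1. Zfas1 fell by 0.28 ± 0.06 in miRbmx (adjusted p = 0.0179) and gave -0.26 ± 0.06 in miRbmxl1 (adjusted p = 0.0382). Epb41l4aos gave -0.35 ± 0.07 (adjusted p = 0.0131) and -0.27 ± 0.07 (adjusted p = 0.0458). No gene of these lists was called without the block.

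Protein-coding snoRNA hosts are mostly ribosomal and translation genes. Of 40 tested, 26 had a positive fitted change in miRbmx and 18 in miRbmxl1. Of these 40, 1 was called higher in miRbmx (Eif4a1, a translation initiation helicase, 0.22 ± 0.06) and 1 lower in miRbmxl1 (Gnl3, a nucleolar GTPase, -0.24 ± 0.06), with medians of 0.05 and -0.01. Over all genes 4.16% were called higher in miRbmx and 2.2% lower in miRbmxl1. Of 18 snoRNP proteins, which package and assemble the small RNAs, Ruvbl2 was called higher in both knockdowns (0.25 ± 0.06 and 0.24 ± 0.06) and Nop10 in miRbmxl1 (0.28 ± 0.07), where 2.25% of all genes were called higher. None was called lower.

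Among 20 factors of nonsense-mediated decay, 3 were called in miRbmx, where 8.35% of all genes were called. Smg6, the endonuclease of the route, was lower in both (-0.51 ± 0.07, adjusted p = 0.00240; -0.45 ± 0.07, adjusted p = 0.00644), from 90.3 CPM in miScramble to 63.7 and 66.3 CPM. Upf3b was lower in miRbmx (-0.46 ± 0.11) and Nbas was higher in miRbmx (0.27 ± 0.08). Of 16 genes with an mRNA form known as a decay target, 5 were called lower and 1 higher in miRbmx. In miRbmxl1, 2 were called lower and 1 higher. Counts per gene do not separate mRNA forms, and decay itself was not measured. Over all genes 4.19% were called lower and 4.16% higher in miRbmx, and 2.2% and 2.25% in miRbmxl1. The 16 fitted changes were split, with 9 positive and 7 negative in miRbmx (median 0.02) and 7 positive and 9 negative in miRbmxl1 (median -0.04). Slc7a11 and Srsf6 were lower in both (-0.37 ± 0.06 and -0.34 ± 0.06 for Slc7a11; -0.53 ± 0.09 and -0.55 ± 0.09 for Srsf6), and Tbl2 was higher in both (0.22 ± 0.06 and 0.25 ± 0.06). Srsf7 was lower in miRbmx (-0.39 ± 0.09). Of 17 exosome and exonuclease genes, none was called in miRbmx. In miRbmxl1 Dis3 was called lower (-0.22 ± 0.06), as were 2.2% of all genes.

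The genes most like the members were sought by Pearson r between their log2 CPM and the mean standardised profile of the 10 members over 12 libraries. The 5 highest were Neat1, the non-coding RNA of paraspeckles (0.893), Plekha5 (0.886), Efcab2 (0.882), P2rx3 (0.880) and Itgb1bp2 (0.869). The libraries fall into 2 sets, and within replicates 1 and 2, and 3 and 4, r was 0.908 and 0.876 for Neat1 and 0.912 and 0.949 for Plekha5, over 6 libraries each. The members themselves had r from 0.26 (Snhg3) to 0.703 (Snhg8) with their mean profile. Within sets this went as low as -0.004 for Snhg1 in replicates 1 and 2 and -0.035 for Snhg3 in replicates 3 and 4.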

How the data were processed

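RNA was sequenced from 12 libraries in 3 groups of 4. The authors deposited raw counts per Ensembl gene, 1 file per library, without normalization. Per the submitters' processing notes, STAR 2.5.3a, HTSeq 0.6.1p1, DESeq2 1.16.1 in R 3.3.2 and the mm10 build were used; their settings, and the annotation used for counting, are not given in the sources used here. The 5 rows naming no gene held 52.33% to 57.37% of each file and were left out. Libraries had 43.1 to 52.2 M reads in genes. Names and positions came from GENCODE M21, which held 55141 of the 55401 identifiers.

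The count model was that of edgeR 4.0.16 (R 4.3.3). The filter filterByExpr (minimum count 10, minimum total 15) kept 17569 genes. Library sizes were scaled by TMM, and a quasi-likelihood model with group and replicate number was fitted to all libraries, with Benjamini-Hochberg adjustment over all genes. Standard errors came from the fold change and the F statistic. The fit was tested on simulated data, but the outcome is not given here and no result above rests on it. CPM per kb used the union of annotated exons.

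The replicate number was used as a block because the plan for these members named it and the groups share these numbers in the labels. Deviations from group means of same-number libraries correlated with r from 0.20 to 0.52 in all 12 pairs. Libraries of another number in the same set gave 0.10 to 0.43 (12 pairs) and those of the other set -0.57 to -0.13 (24 pairs), so the pairing includes the separation of replicates 1 and 2 from 3 and 4. The common dispersion was 0.0093 with the block and 0.0362 without it.

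The members, lists and tests were chosen with earlier results of these data known. All members were named. Of each other list, at most 4 called genes per comparison were named, by smallest adjusted p; 1 result that this rule names is not reported here. Alternatives were no block, RLE size factors, the Wald test of DESeq2 1.42.0, no filter, the longest transcript as length, and fewer libraries.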

Additional observations from a re-analysis of the deposited data

How the results depend on the processing

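All values here are compared with the fit that has the replicate block. Without the block the count of members called in miRbmx against miScramble was 0 in place of 3, and 1 gene of all was called in each knockdown against miScramble (1467 and 783 with the block). No other call of a member changed with the block, and Snhg5 in miRbmx against miRbmxl1 turned from -0.0009 to 0.0001. That value near 0 was also positive with RLE size factors (0.0023), with DESeq2 (0.0023) and with no low-count filter (0.0081). With no filter, 5 members were called in miRbmx and 2 (Snhg12 and Snhg17) in miRbmxl1 against miScramble, and 1 (Snhg20) between the knockdowns; over all 31777 genes 2085 were called in miRbmx and 1243 in miRbmxl1 against miScramble and 86 between the knockdowns. DESeq2 called 1 member and 1279 genes in miRbmxl1 against miScramble, and 10 genes between the knockdowns. The cause of these differences was not tested.

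Within replicates 1 and 2 alone, 0 members and 4 genes of all were called in miRbmx, 30 genes in miRbmxl1, and 4 between the knockdowns. Changes that turned sign there were Snhg1 in miRbmx (0.0455) and miRbmxl1 (0.1065), Snhg3 (-0.0265) and Snhg5 (0.0929) in miRbmxl1, and Snhg1 between the knockdowns (-0.0609). Within replicates 3 and 4 alone, 2 members were called in miRbmxl1 and 18 genes between the knockdowns. Changes that turned sign there were Snhg3 (0.04) and Snhg5 (0.035) in miRbmx, and Gas5 (0.0383), Snhg5 (0.1922) and Snhg12 (0.0169) between the knockdowns. These fits have fewer libraries.

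Leaving out 1 library, or 1 replicate number in all groups, gave 0 (without replicate 3) to 5 members called in miRbmx against miScramble, and 0 in each such fit of the other comparisons. Genes called over all ranged from 146 (without replicate 3) to 1904 (without miRbmxl1 2) in miRbmx, from 100 (without replicate 4) to 1032 (without miRbmxl1 2) in miRbmxl1, and from 2 to 7 between the knockdowns. Changes that turned sign in some of these fits ranged as follows, none of them called. Snhg5 in miRbmx went from -0.0931 to 0.018. In miRbmxl1, Snhg3 went from -0.1055 to 0.1313, Snhg5 from -0.1024 to 0.0345, Snhg17 from -0.3638 to 0.0359 and Snhg20 from -0.4193 to 0.1123. Between the knockdowns, Gas5 went from -0.0844 to 0.0467, Snhg1 from -0.0498 to 0.1101, Snhg5 from -0.068 to 0.0827 and Snhg12 from -0.0718 to 0.0276. Snord87 and Snora73a had at most 25 reads per library, which limits what their changes can show.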
